A study of Mus musculus with 6 samples.

Results

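The genes described here are 10 that govern the step from G1 into S phase of the cell cycle. They are the D-type cyclins Ccnd1, Ccnd2 and Ccnd3, their kinases Cdk4 and Cdk6, the kinase inhibitors Cdkn1a, Cdkn1b, Cdkn1c and Cdkn2c, and the retinoblastoma gene Rb1. They were selected by gene symbol from a table of 24419 symbols. All 10 were found in it, and all 10 reached the mean level of 1 CPM that was required for testing, as did 14523 genes in all.

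D-type cyclins rise when a cell receives growth signals, and with CDK4 or CDK6 they phosphorylate the retinoblastoma protein, which then releases E2F transcription factors to switch on the genes of DNA replication. The Cip/Kip inhibitors p21 (Cdkn1a), p27 (Cdkn1b) and p57 (Cdkn1c) bind cyclin-CDK complexes, and the INK4 inhibitor p18 (Cdkn2c) binds CDK4 and CDK6 themselves. Mature neurons have left the cell cycle, whereas glial precursors, mural cells, fibroblasts and immune cells can divide after a stroke. Transcription of Cdkn1a is a classic output of p53, the factor activated by DNA damage and other stress.

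The libraries came from male wild-type mice of the C57BL/6N strain, all of which had the middle cerebral artery occluded for 60 min, so no group without a stroke was included. At 24, 48 and 72 h after onset the mice were injected intravenously with vehicle or with 15-HETrE, a hydroxylated fatty acid, at 600 ng in 150 µL of buffered saline, and the peri-infarct cortex was taken on day 4. Cells positive for Thy1 and negative for ACSA2, CD31, CD45 and O4 were sorted as a fraction enriched in neurons. Both groups had 3 RNA-seq libraries. Since no label says that each came from its own animal, the p-values reflect library-to-library spread only, which may be technical. Values given without names below follow the order 1, 2 and combined for vehicle and 1, unnumbered and combined for 15-HETrE.

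Depth ran from 5405245 to 22558400 reads assigned to genes. Column names gave 2 numbered vehicle libraries and 1 numbered 15-HETrE library, which share a name prefix, a 15-HETrE library without a number under another prefix, and a library of each group named combined. Both combined libraries were the shallowest, at 5405245 reads in vehicle and 7993084 in 15-HETrE, against 16218335 or more in the others. They were also the most often extreme. Vehicle combined was the highest or the lowest of the 6 libraries for 50.5% of the genes tested and for 5 of the 10 genes described here, and 15-HETrE combined for 42.2% and for 4 of the 10. The other 4 libraries were so for 21.0% to 33.9% of the genes tested. All 8 neuronal markers were detected in every library, with sums of 1866 to 3179 CPM in vehicle and 3087 to 5903 CPM in 15-HETrE libraries. Markers of other cells were present too: those of oligodendrocytes summed to 14741 to 30893 CPM over all libraries, and those of fibroblasts to 12676, 10254 and 1478 CPM in vehicle libraries 1, 2 and combined, against 1232 to 2185 CPM in 15-HETrE libraries. The fibroblast sums include Pdgfra, which is also a marker of oligodendrocyte precursors. Markers of these precursors, with Pdgfra, summed to 3014 to 4691 CPM in vehicle and 3368 to 4030 CPM in 15-HETrE libraries. In such bulk samples, fewer cells of a type and less RNA per cell cannot be told apart.

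The comparison asked whether the transcripts that control G1 have other levels in the sorted cells after 15-HETrE than after vehicle. One gene stood clear of the others. Cdkn1a, which encodes p21, was lower in every 15-HETrE library than in any vehicle library, while the levels of the other 9 genes overlapped between groups. None passed the test over all genes: 0 of 10 were higher and 0 of 10 were lower at an adjusted p of 0.05 (limma), as were 0% of the 14523 genes in either direction. At an unadjusted p under 0.05 limma had 1380 genes in all and edgeR 1232; after adjustment edgeR called 0 genes, and DESeq2 called 35 higher and 130 lower. Without overlap, 1 of 10 was lower and 0 were higher, against 8.32% and 6.84% of all genes tested. The same gene was the only one of the 10 at an unadjusted p under 0.05 (limma). The share of all genes was 9.5%, with 5.23% on the lower side and 4.27% on the higher side. With so few genes, both counts were thus near the shares of all genes. On average 9 of 10 were lower, against 49% of all genes. Among the 9, Ccnd1 differed by only -0.01 and Ccnd2 by -0.09 on the log2 scale. Ccnd1, Ccnd2, Cdk4, Cdkn2c and Rb1 turned sign in some of the alternative settings given at the end. The median log2 difference of the 10 was -0.20, and that of all genes 0.02. The plot of levels by library shows these values gene by gene.

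**Figure D1:**
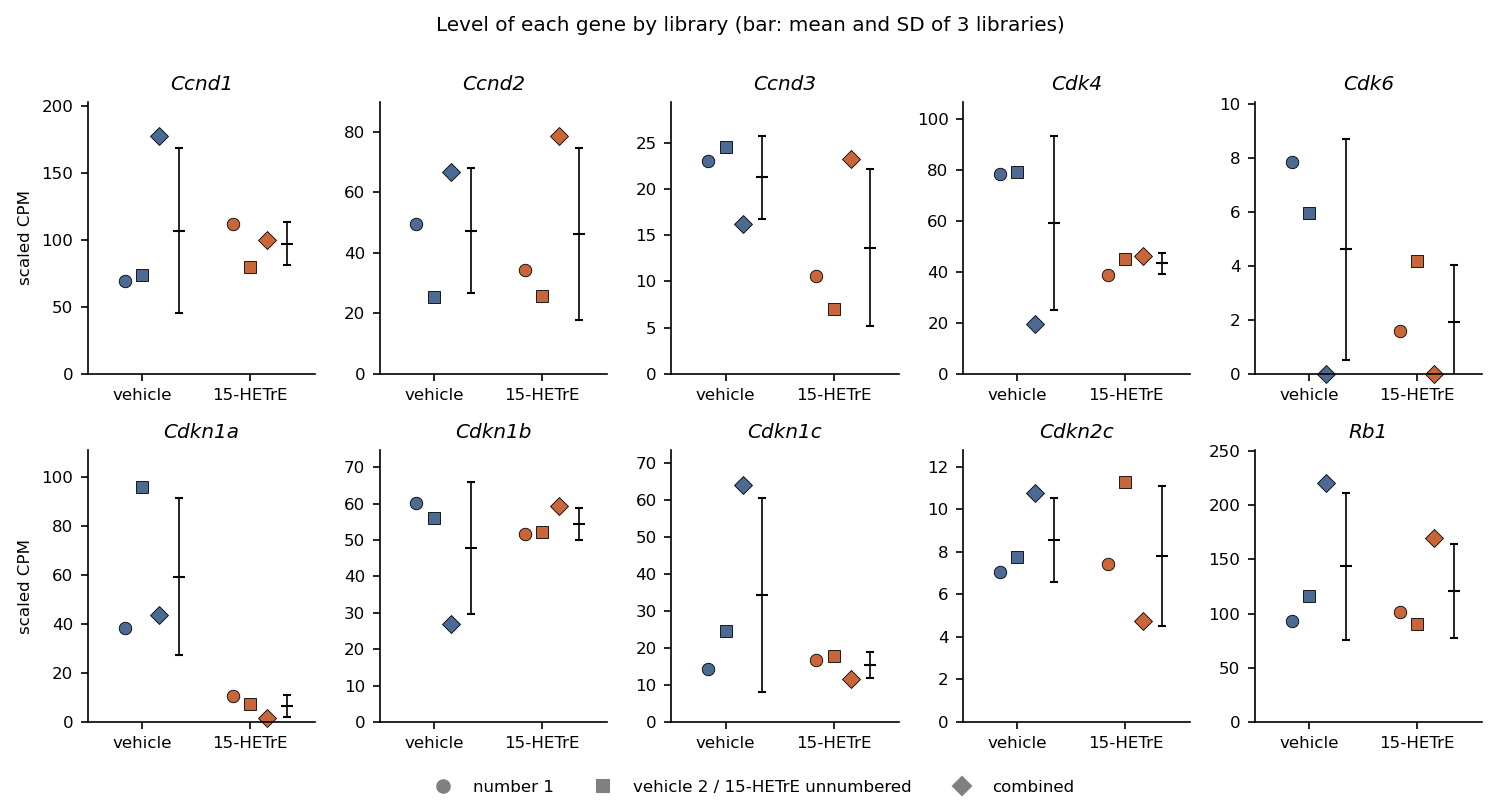
Level of each of the 10 genes in scaled CPM (vertical axis, linear and starting at 0) in the 3 vehicle and 3 15-HETrE libraries; each symbol is a library and the bar gives the mean and SD of the 3. The groups are apart for Cdkn1a, with vehicle at 38.2 to 96.2 CPM and 15-HETrE at 1.49 to 10.6 CPM, and overlap for the other 9 genes.

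Cdkn1a (chromosome 17, 29090976 to 29100727, plus strand, GRCm38) had 38.2, 96.2 and 43.9 CPM in vehicle libraries 1, 2 and combined. The 15-HETrE libraries had 10.6 CPM in number 1, 7.40 CPM in the unnumbered and 1.49 CPM in the combined library. The highest 15-HETrE library thus lay well under the lowest vehicle library, and the 2 sets did not touch. These levels rested on 818, 2138 and 244 reads in vehicle and on 232, 124 and 11 reads in 15-HETrE libraries. Group means were 59.4 ± 31.9 and 6.48 ± 4.61 CPM (SD, n = 3 per group), a ratio of 9.17. On the log2(CPM + 1) scale, where changes of low levels look smaller than they are, the difference was -3.16 (SE 0.63, 95% interval -4.55 to -1.76). Its p of 0.000497 ranked 17 of 14523 genes, and the adjusted p was 0.334 (limma, Benjamini-Hochberg). The sign was the same among the numbered libraries of the first prefix, at -2.42, and in the combined pair, at -4.17. The call depended on the tool and the libraries: Cdkn1a passed with DESeq2 on the recovered reads (adjusted p 0.000878), as did 0.895% of all genes on the lower side and 0.241% on the higher side. It also passed when limma weighted the libraries (adjusted p 0.00107), a setting that called 9.41% of all genes lower and 7.29% higher. Without both combined libraries its adjusted p was 0.0492 (limma), with 201 genes called lower and 3 higher of 14559. In edgeR it did not pass (adjusted p 0.468).

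For Cdkn1a, 2 start sites are listed by RefSeq on GRCm38.p6, and both windows of 300 bases, from 250 before to 50 after the start, are shown because this gene had the largest difference of the 10. Capitals mark a match to the p53 response element, a sequence that reads alike on both strands, with its fixed C and G letters intact and at most 1 mismatch elsewhere. The match begins 51 bases before the upstream start. No match to this element, to the E2F motif or to the E-box, both defined below, lies in the downstream window.
Cdkn1a upstream start, chr17:29090729-29091028, plus strand: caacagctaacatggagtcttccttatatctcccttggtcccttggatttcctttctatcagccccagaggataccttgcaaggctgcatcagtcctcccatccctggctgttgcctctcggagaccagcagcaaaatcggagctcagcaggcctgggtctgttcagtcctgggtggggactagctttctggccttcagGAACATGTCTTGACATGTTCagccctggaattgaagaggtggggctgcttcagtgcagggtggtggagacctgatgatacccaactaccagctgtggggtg
Cdkn1a downstream start, chr17:29093519-29093818, plus strand: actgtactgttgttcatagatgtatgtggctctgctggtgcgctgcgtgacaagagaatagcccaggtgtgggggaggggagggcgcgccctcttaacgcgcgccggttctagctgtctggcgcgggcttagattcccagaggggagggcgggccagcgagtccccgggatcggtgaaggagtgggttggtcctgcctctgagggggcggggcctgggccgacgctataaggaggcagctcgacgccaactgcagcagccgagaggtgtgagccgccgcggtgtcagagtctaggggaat
Of 32851 such windows in the table used here, 22 held the element, or 0.0670%. A match describes the sequence and does not show that p53 was bound.

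In the p53 list without Cdkn1a most genes had lower means with 15-HETrE, but few stood out from the libraries' spread. Of 16 tested, 15 were lower and 1 was higher, with a median of -0.41 on the log2 scale. None passed over all genes. On the lower side, 1 of 16 had an unadjusted p under 0.05, against 5.23% of all genes, and 2 of 16 had no overlap, against 8.32%, so both shares were near those of all genes. Mdm2, which encodes the ligase that degrades p53, had 113, 156 and 252 CPM in vehicle libraries 1, 2 and combined, and 81.9, 132 and 59.9 CPM in 15-HETrE 1, unnumbered and combined. The unnumbered 15-HETrE library exceeded vehicle 1, so the groups overlapped (log2 difference -0.92, adjusted p 0.489, limma). Sesn2, a stress-induced sestrin, had 15.0 ± 3.90 and 7.21 ± 4.24 CPM, and Gadd45a, a growth arrest gene, 16.1 ± 3.65 and 8.36 ± 0.468 CPM (SD, n = 3 per group). Neither of them overlapped between groups. Aen, an exonuclease gene, had a log2 difference of -1.23 with overlapping libraries. The p53 gene itself, Trp53, had 34.6 ± 10.4 and 22.5 ± 11.6 CPM. Ccng1, whose promoter window also holds the p53 element, stood at 164 ± 20.1 and 156 ± 26.6 CPM, and its groups overlapped.

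Cdkn1b and Cdkn1c, of the same inhibitor family as Cdkn1a, gave overlapping groups. Cdkn1b (p27; chromosome 6, 134920401 to 134925513, plus strand) had 60.3, 56.0 and 27.0 CPM in vehicle libraries 1, 2 and combined. In 15-HETrE 1, unnumbered and combined it had 51.7, 52.2 and 59.5 CPM. All libraries but vehicle combined thus lay within a narrow band. On the log2 scale the difference was 0.26 (SE 0.35, 95% interval -0.51 to 1.04, adjusted p 0.829, limma), and without vehicle combined it was -0.10. Cdkn1c (p57, an imprinted gene; chromosome 7, 143458339 to 143461050, minus strand) had 14.4, 24.6 and 64.0 CPM in vehicle libraries 1, 2 and combined. Its 15-HETrE libraries had 16.8, 18.0 and 11.5 CPM in the same order. Vehicle 1 lay among the 15-HETrE libraries, and without vehicle combined the log2 difference was -0.29. With all libraries it was -0.87 (SE 0.54, 95% interval -2.07 to 0.34, adjusted p 0.637, limma), with -0.15 within the first prefix and -2.38 in the combined pair.

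Expressed per kb of exon, which allows genes to be compared, the Cip/Kip transcripts were made up as follows. Their summed level was 31.0, 51.4 and 49.7 CPM per kb in vehicle 1, vehicle 2 and vehicle combined and 22.6, 22.4 and 19.1 CPM per kb in 15-HETrE 1, unnumbered and combined, so the groups did not overlap. Cdkn1a made up 37.4% ± 14.1 of this sum in vehicle and 8.22% ± 5.57 in 15-HETrE libraries (SD, n = 3 per group). Cdkn1b made up 26.2% ± 15.5 and 56.6% ± 10.2, and Cdkn1c 36.4% ± 23.2 and 35.2% ± 5.12. Cdkn1b was the largest of the 3 parts in each 15-HETrE library. In vehicle libraries the largest part differed: Cdkn1b in vehicle 1, Cdkn1a in vehicle 2 and Cdkn1c in vehicle combined. These shares were not tested, and they follow from the levels above.

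**Figure D2:**
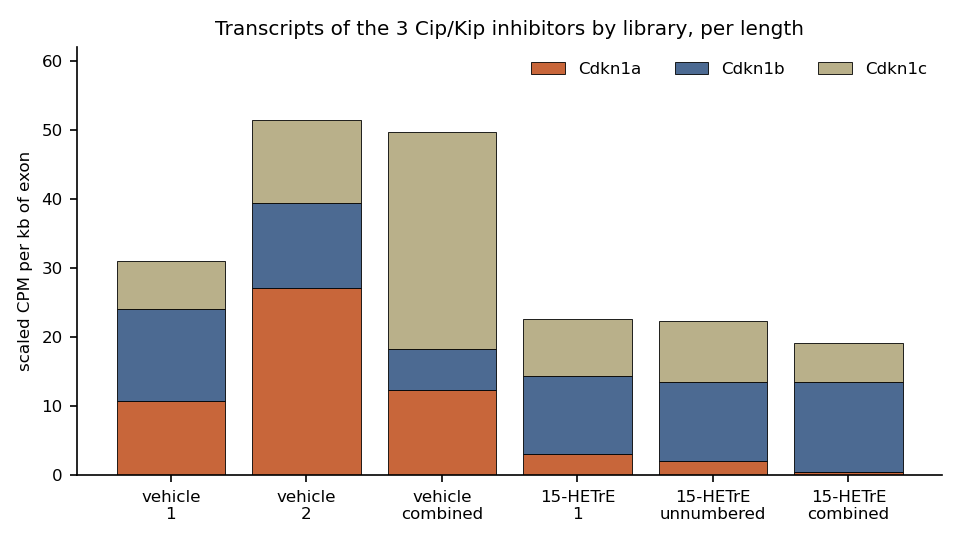
Stacked levels of Cdkn1a, Cdkn1b and Cdkn1c in scaled CPM per kb of exon (vertical axis, starting at 0) in each of the 6 libraries. The sums reach 31.0 to 51.4 in vehicle and 19.1 to 22.6 in 15-HETrE libraries, and the Cdkn1a part is smallest in the 15-HETrE combined library.

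Cdkn2c (p18; chromosome 4, 109660876 to 109667189, minus strand), the INK4 inhibitor among the 10, was low in both groups, with overlap. It had 7.06, 7.78 and 10.8 CPM in vehicle libraries 1, 2 and combined and 7.42, 11.3 and 4.73 CPM in 15-HETrE 1, unnumbered and combined. The highest and the lowest library were both of the 15-HETrE group. The fitted log2 difference was -0.16 (SE 0.55, 95% interval -1.40 to 1.07, adjusted p 0.944, limma). Of the 4 other inhibitor genes listed, Cdkn2a and Cdkn3 were under the level required for testing. Cdkn2b (p15) had 2.49 ± 2.42 and 0.633 ± 0.747 CPM, and Cdkn2d (p19) 9.60 ± 8.01 and 11.3 ± 0.854 CPM, with overlap for both.

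The 3 D-type cyclins carry near their start the motif leucine, any residue, cysteine, any residue, glutamate, with which they dock on the retinoblastoma protein. The first 45 bases of each coding sequence (GENCODE M21, transcript 201 of each gene) show what the family shares. Capitals mark the 5 codons of the motif, codons 5 to 9 in Ccnd1 and 3 to 7 in Ccnd2 and Ccnd3.
Ccnd1: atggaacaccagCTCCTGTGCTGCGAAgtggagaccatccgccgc
Ccnd2: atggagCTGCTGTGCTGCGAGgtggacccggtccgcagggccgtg
Ccnd3: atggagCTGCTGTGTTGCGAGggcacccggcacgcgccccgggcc

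Ccnd1 was the most abundant of them per length, at 22.7 ± 13.0 CPM per kb in vehicle and 20.6 ± 3.42 in 15-HETrE libraries (SD, n = 3 per group). Ccnd2 followed with 5.02 ± 2.20 and 4.90 ± 3.02 CPM per kb, and Ccnd3 with 2.42 ± 0.507 and 1.55 ± 0.970 CPM per kb. Ccnd1 thus made up 73.3% ± 7.92 of the D-type cyclin transcripts in vehicle and 77.2% ± 9.81 in 15-HETrE libraries, a difference within the spread of either group. In each library Ccnd1 exceeded Ccnd2, and Ccnd2 exceeded Ccnd3, except in vehicle 2, where Ccnd3 made up 13.2% and Ccnd2 12.8%. All annotated exons together measured 4709 bases for Ccnd1, 9409 for Ccnd2 and 8775 for Ccnd3. With shorter transcripts in use, these ranks and shares could differ.

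Ccnd1 (chromosome 7, 144929931 to 144939925, minus strand) had 69.3, 73.7 and 178 CPM in vehicle libraries 1, 2 and combined and 112, 79.9 and 100 CPM in 15-HETrE 1, unnumbered and combined. All 3 treated libraries lay above the numbered vehicle libraries and below vehicle combined. The log2 difference was -0.01 (SE 0.37, 95% interval -0.82 to 0.80, adjusted p 0.994, limma). Without vehicle combined it was 0.43. Within the first prefix it was 0.64, and in the combined pair -0.82.

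Ccnd2 (chromosome 6, 127125162 to 127152193, minus strand) had 49.6, 25.5 and 66.7 CPM with vehicle against 34.2, 25.7 and 78.5 CPM with 15-HETrE, in the same order. The combined library was the highest of each group. On the log2 scale the difference was -0.09 (SE 0.48, 95% interval -1.16 to 0.97, adjusted p 0.959, limma). Ccnd3 (chromosome 17, 47505051 to 47599691, plus strand) had 23.0, 24.5 and 16.2 CPM with vehicle against 10.6, 7.04 and 23.2 CPM with 15-HETrE. The numbered and unnumbered 15-HETrE libraries were the lowest of all, but the combined one was as high as vehicle 1. The fitted log2 difference was -0.74 (SE 0.51, 95% interval -1.88 to 0.40, adjusted p 0.669, limma). Ccnd3 passed only when limma weighted the libraries (-1.04, adjusted p 0.0370), the setting that called so many genes and gave vehicle combined the least weight. Exons of Ccnd3 overlap those of Bysl on the opposite strand, and no source used here says whether strand was used in counting.

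Among the kinases, Cdk4 (chromosome 10, 127063534 to 127067920, plus strand) prevailed. It had 78.5, 79.1 and 19.6 CPM in vehicle libraries 1, 2 and combined. The 15-HETrE libraries lay between, at 38.7, 45.1 and 46.1 CPM in number 1, unnumbered and combined. They were alike among themselves, whereas vehicle combined was the lowest library and the other vehicle libraries the highest. The log2 difference was -0.20 (SE 0.49, 95% interval -1.29 to 0.89, adjusted p 0.918, limma), made of -1.01 within the first prefix and 1.19 in the combined pair. With library weights it was -0.88 and passed (adjusted p 0.0281, limma), while without vehicle 1 it was 0.12 and without vehicle 2 it was 0.13. Without vehicle combined it was -0.85. Exons of Cdk4 overlap those of Tspan31 on the opposite strand, which had a mean of 54.1 CPM, so reads of the overlap may have been assigned to either or left out.

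Cdk6 (chromosome 5, 3341485 to 3531008, plus strand), the second kinase of the D-type cyclins, was the lowest of the 10 in mean CPM. It had 7.85 and 5.98 CPM in vehicle 1 and 2, and 1.59 and 4.18 CPM in 15-HETrE 1 and unnumbered, from 168, 133, 35 and 70 reads. Both combined libraries had 0 reads, which allows up to 0.540 CPM in vehicle combined and 0.405 CPM in 15-HETrE combined (a floor of 3 reads, for counting error only). On the log2 scale the difference was -0.73 (SE 0.98, 95% interval -2.92 to 1.45, adjusted p 0.832, limma). Per kb of exon, Cdk4 made up 98.7% ± 1.19 of the transcripts of the pair in vehicle and 99.0% ± 1.05 in 15-HETrE libraries.

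The promoter of Cdk4 is shown because it holds 4 copies of the E-box, a sequence that Myc can bind. The Myc gene, described below, was lower in all 15-HETrE libraries, whereas the groups overlapped for Cdk4. Capitals mark the E-box, CACGTG, which reads alike on both strands; the copies begin 172, 118, 98 and 11 bases before the start.
Cdk4, chr10:127063285-127063584, plus strand: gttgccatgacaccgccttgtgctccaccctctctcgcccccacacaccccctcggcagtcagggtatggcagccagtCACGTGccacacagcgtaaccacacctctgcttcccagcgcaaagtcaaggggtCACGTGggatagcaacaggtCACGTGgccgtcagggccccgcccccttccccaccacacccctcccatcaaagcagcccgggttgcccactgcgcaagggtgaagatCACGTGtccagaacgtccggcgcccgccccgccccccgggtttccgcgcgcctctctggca
The E-box was found in 7.15% of all windows. Among the 10 genes, 6 had a window in the table, and Cdk4, Cdk6 and Cdkn2c held the motif. That is a count of genes, which had 9 windows, and not a share of windows. A match does not show that Myc was bound, and a link between Myc and these genes was not tested.

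Rb1 (chromosome 14, 73183673 to 73325822, minus strand), the substrate of these kinases, had 93.6, 116 and 221 CPM in vehicle libraries 1, 2 and combined. In 15-HETrE 1, unnumbered and combined it had 102, 90.2 and 170 CPM. The combined library was the highest of each group, and the other 4 lay close together. The fitted log2 difference was -0.20 (SE 0.36, 95% interval -1.01 to 0.60, adjusted p 0.877, limma), and without vehicle combined it was 0.15. Lpar6 and Rcbtb2, with means of 15.2 and 22.8 CPM, overlap exons of Rb1 on the opposite strand. Of its relatives, Rbl1 (p107) had 17.7, 16.6 and 20.1 CPM with vehicle against 15.1, 12.5 and 4.60 CPM with 15-HETrE, without overlap (log2 difference -0.84, adjusted p 0.637, limma). Rbl2 (p130) had 88.0 ± 8.09 and 97.2 ± 12.1 CPM, with overlap.

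The plot of fold changes sets the 10 genes side by side. In both within-prefix differences, 3 of 10 genes were lower, namely Cdkn1a, Cdkn1c and Rb1, and 0 were higher, against 26.3% and 30.9% of all genes. For 6 genes the 2 differences had opposite signs, and Cdk6 was at 0 in the combined pair. The unnumbered 15-HETrE library enters neither difference.

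**Figure D3:**
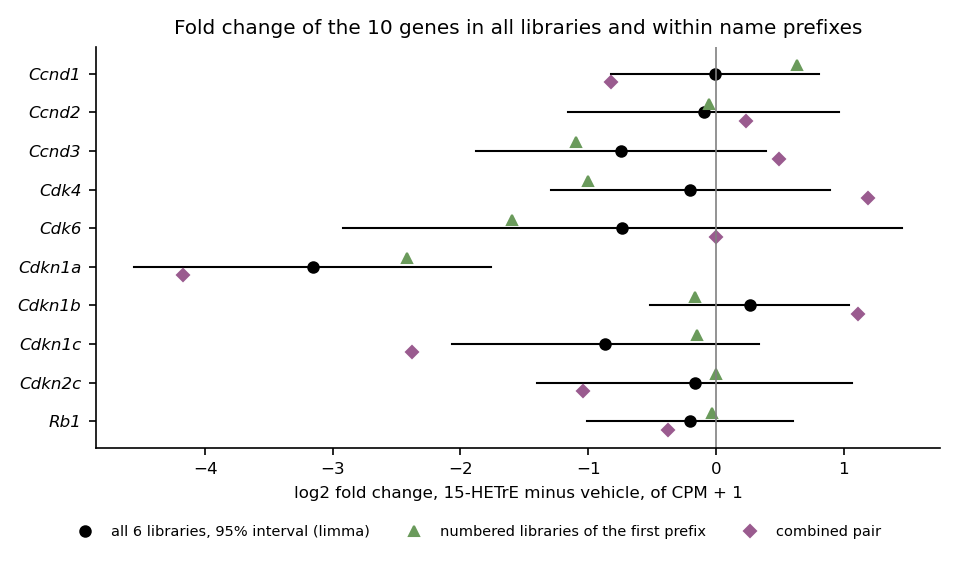
Log2 fold change of each gene, 15-HETrE minus vehicle, of CPM + 1 (horizontal axis): black points with 95% intervals are the fit to all 6 libraries, triangles the numbered libraries of the first prefix, and diamonds the combined pair. The interval of Cdkn1a runs from -4.55 to -1.76, and the intervals of the other 9 genes include 0.

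Downstream of the retinoblastoma protein, the E2F factors overlapped between groups while the genes they drive were lower in 15-HETrE libraries. Of 9 E2F and DP genes tested, 5 were higher and 4 lower, with a median of 0.07 on the log2 scale, and 0 passed. E2f3, an activator, had 29.7 ± 2.21 and 25.4 ± 8.95 CPM, and Tfdp1, its partner subunit, 56.3 ± 17.1 and 62.2 ± 11.0 CPM (SD, n = 3 per group). E2f4, a repressor, had 23.7 ± 2.45 and 30.5 ± 16.5 CPM, and E2f7, another repressor, 5.53 ± 4.83 and 2.14 ± 2.71 CPM. Of 5 genes of cyclin E, cyclin A, CDK2 and its activator, 4 were lower and 1 was higher, and none passed. Ccna2, the S phase cyclin, had 45.3, 58.5 and 22.7 CPM with vehicle against 10.8, 15.4 and 3.24 CPM with 15-HETrE, without overlap (log2 difference -2.10, adjusted p 0.394, limma). Cdc25a, the phosphatase that activates CDK2, had a log2 difference of -1.97, and Cdk2 one of -0.83, both with overlap. Ccne1, which encodes cyclin E1, had 9.08 ± 8.73 and 5.63 ± 4.90 CPM.

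All 16 E2F target genes tested were lower on average, with a median of -1.32. None passed over all genes. On the lower side, 5 of 16 had an unadjusted p under 0.05, against 5.23% of all genes, and 7 of 16 had no overlap, against 8.32%. This direction was known from earlier results of the same libraries and is no independent evidence. Mcm6, which encodes a helicase subunit needed for replication, had 68.8, 65.7 and 50.2 CPM with vehicle against 22.9, 24.4 and 8.11 CPM with 15-HETrE, a log2 difference of -1.81 (adjusted p 0.366, limma). Mcm5 and Mcm2, of the same helicase, had log2 differences of -1.89 and -1.64. Mki67, a marker of dividing cells, had 273, 240 and 233 CPM with vehicle against 72.9, 41.7 and 51.2 CPM with 15-HETrE. Its log2 difference of -2.18 had the smallest p of all genes (8.99e-06, adjusted p 0.131, limma).

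The promoter of Mcm6 is shown beside those of Cdkn1a and Cdk4 since it holds E2F motifs. Of the 10 genes, the 6 with a window lacked them there, and the others could not be searched. Capitals mark TTTCGCGC or TTTGGCGC on either strand, 2 of the 3 matches overlapping. They begin 110, 106 and 47 bases before the start.
Mcm6, chr1:128359656-128359955, minus strand: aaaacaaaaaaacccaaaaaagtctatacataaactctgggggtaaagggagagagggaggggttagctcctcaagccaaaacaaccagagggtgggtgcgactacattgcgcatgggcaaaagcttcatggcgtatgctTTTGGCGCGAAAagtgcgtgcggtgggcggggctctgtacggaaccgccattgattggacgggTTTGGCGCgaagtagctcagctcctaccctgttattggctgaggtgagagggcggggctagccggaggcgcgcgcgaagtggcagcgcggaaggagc
The motif was present in 0.813% of all windows. It was found in 7 of the 14 E2F target genes with a window, genes listed because E2F drives them, and in 0 of the 6 genes with a window among the 10. These are counts of genes, which had 16 and 9 windows, so the share of windows is not a like measure. The absence says only that these letters are not in the windows searched.

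**Figure D4:**
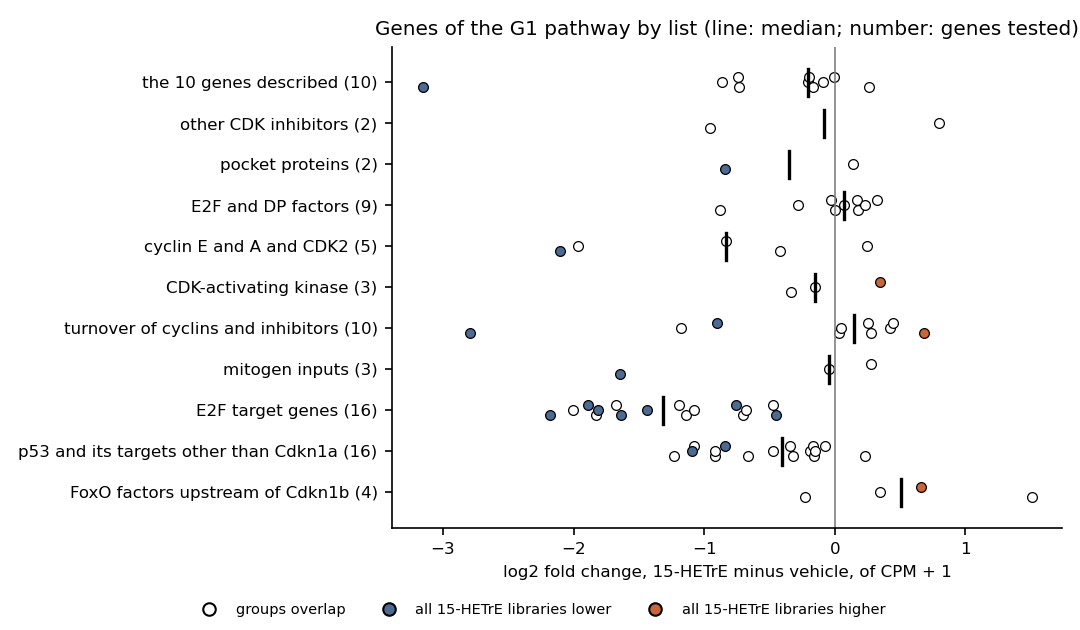
Log2 fold change of each tested gene, 15-HETrE minus vehicle, of CPM + 1 (horizontal axis), by list; filled points are genes without overlap between groups and the upright line is the list's median. The E2F target genes, median -1.32, all lie left of 0, while the E2F and DP factors, median 0.07, lie on both sides.

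Upstream inputs were mixed. Myc, a growth factor-induced transcription factor, had 53.2, 63.6 and 63.7 CPM in vehicle libraries 1, 2 and combined. In 15-HETrE 1, unnumbered and combined it had 20.3, 22.9 and 13.4 CPM, all far below the vehicle libraries. The log2 difference was -1.65 (SE 0.34, adjusted p 0.334, limma), with -1.47 within the first prefix and -2.17 in the combined pair. Its relatives Mycl and Mycn overlapped between groups, at log2 differences of 0.28 and -0.05. Foxo3, which encodes a factor that activates Cdkn1b, had 53.2, 40.5 and 46.0 CPM with vehicle against 59.4, 73.5 and 92.5 CPM with 15-HETrE, without overlap (log2 difference 0.66, adjusted p 0.515, limma). Of 4 FoxO genes 3 were higher and 1 lower, and none passed. Foxo6 had a log2 difference of 1.51, Foxo1 0.34 and Foxo4 -0.23, each with overlap.

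Genes that act on the turnover of cyclins and inhibitors were higher for 7 and lower for 3 of 10, with 0 past the test. Fbxw7, of the ligase that degrades cyclin E and Myc, had 98.1, 54.6 and 108 CPM with vehicle against 153, 115 and 138 CPM with 15-HETrE, without overlap (log2 difference 0.68, adjusted p 0.523, limma). Cks2, a CDK-binding subunit, had 12.7, 20.6 and 4.50 CPM with vehicle against 2.87, 0 and 0.270 CPM with 15-HETrE, again without overlap. Its relative Cks1b had 18.9 ± 13.9 and 5.61 ± 1.69 CPM, with overlap. Fbxo4, of a ligase described for cyclin D1, had 14.1 ± 2.06 and 7.23 ± 2.38 CPM, without overlap. Cdk7, the kinase that activates CDKs, had 39.5 ± 6.73 and 50.03 ± 4.45 CPM, without overlap; its partners Ccnh and Mnat1 had log2 differences of -0.15 and -0.33, with overlap. Over the 70 pathway genes tested outside the 10, 21 were higher and 49 lower, with a median of -0.38. Of these 70, 3 higher and 14 lower genes had no overlap, against 6.84% and 8.32% of all genes, and 7 of the 14 were E2F targets. DESeq2 called 3 of them lower and 0 higher.

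Markers of fibroblasts and of pericytes had lower means with 15-HETrE, as did Cdkn1a. Fibroblast markers, 8 of 8, had lower means with 15-HETrE, and their median difference was -5.04 within the first prefix and -0.71 in the combined pair, where Cdkn1a differed by -2.42 and -4.17. In vehicle combined, the summed fibroblast level of 1478 CPM lay within the 15-HETrE range, and Cdkn1a at 43.9 CPM was above all 15-HETrE libraries. Pdgfra, shared with oligodendrocyte precursors, is part of these sums. Its mean was 1089 CPM after vehicle and 897 CPM after 15-HETrE, where the whole sums were only 1232 to 2185 CPM. A low sum can thus be largely Pdgfra, and it says little about the other fibroblast markers in that library. No defining fibroblast marker was at 0. Pericyte and smooth muscle markers were lower for 7 of 8 genes, with sums of 742 to 1233 CPM in vehicle and 257 to 736 CPM in 15-HETrE libraries, and none at 0. These sums did not overlap between groups, but only just. Vehicle combined had 742 CPM and the highest 15-HETrE library, the unnumbered one, 736 CPM, where Cdkn1a had 43.9 and 7.40 CPM. Of the 8 pericyte and smooth muscle genes, 5 were lower without overlap, against 8.32% of all genes. The same 5 were lower at an unadjusted p under 0.05 (limma), against 5.23%, and 0 passed over all genes. Neuronal markers were higher for 7 of 8. Of them, 4 were higher at an unadjusted p under 0.05 (limma), against 4.27% of all genes. Without overlap, 2 were higher, against 6.84%, and 0 passed over all genes. Those of microglia summed to 40.2 to 148 CPM in vehicle and 36.1 to 117 CPM in 15-HETrE libraries, with Aif1 at 0 in some. The part of these marker levels in the results was not tested. Vehicle combined was also highest among vehicle libraries for astrocyte markers, at 7606 CPM against 1032 and 650, as was 15-HETrE combined at 20689 CPM against 3658 and 1340 CPM in its group. These 2 libraries were the highest of their groups for Ccnd2 and Rb1.

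**Figure D5:**
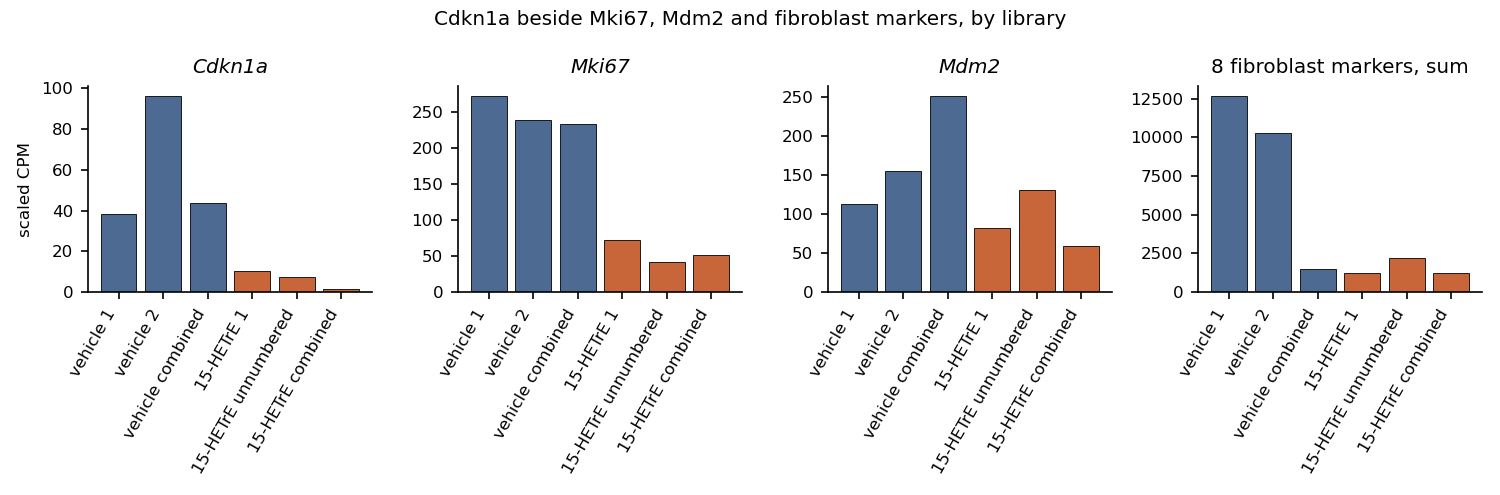
Scaled CPM (vertical axes, starting at 0) of Cdkn1a, Mki67, Mdm2 and the sum of 8 fibroblast markers in each library, vehicle in blue and 15-HETrE in orange. Vehicle combined has 1478 CPM of fibroblast markers, near the 15-HETrE libraries. Its 43.9 CPM of Cdkn1a and 233 CPM of Mki67 are above all 15-HETrE libraries. The fibroblast sum includes Pdgfra, also listed as a marker of oligodendrocyte precursors. Pdgfra averaged 897 CPM after 15-HETrE, so a low sum says little about the other fibroblast markers. Pericyte and smooth muscle markers, whose sums did not overlap between groups, are not plotted.

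Genes with the pattern most like Cdkn1a and Cdkn1c, the 2 with the smallest p of the 10, were sought by Pearson's r over the 6 libraries among the 11514 genes that averaged 5 CPM or more. Nearest to Cdkn1a were Gnl3 (r = 0.994), Pim1 (r = 0.992) and Tmem248 (r = 0.990). Pim1 had 7.71, 17.3 and 7.37 CPM with vehicle against 2.73, 1.31 and 0.270 CPM with 15-HETrE, following the order of Cdkn1a except for the place of vehicle 1 and vehicle combined. Nearest to Cdkn1c were Pcsk7 (r = 0.993), Zfp281 (r = 0.990) and Recql5 (r = 0.986), all highest in vehicle combined. With 6 libraries, 230 genes reached an r of 0.9 with Cdkn1a and 173 with Cdkn1c, so the coefficients are a description.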

How the data were processed

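Libraries were made by the submitters with the Ovation SoLo kit from RNA of sorted cells. The authors trimmed, aligned and counted with tools that the submitters' processing notes list as Trimmomatic, HISAT2, featureCounts and edgeR, on mm10. No source used here gives versions, settings or strand. The deposited signal is CPM scaled by a factor for each library. The value of 1 read was taken as the smallest value above 0 of each column, and 100% of values were whole multiples of it (tolerance 1e-04 reads). Columns were assigned by name; 0 other columns were present.

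The test written for CPM was used on the scaled CPM: limma 3.58.1 in R 4.3.3 on log2(CPM + 1) of genes averaging 1 CPM or more, with a variance trend, treatment as the only term and Benjamini-Hochberg adjustment, two-sided, at 0.05. Alternatives included edgeR 4.0.16 and DESeq2 1.42.0 on recovered reads, other scalings, filters and pseudocounts, library weights and left-out libraries. Scripts were tested on simulated data. Pairs of libraries of a group differed beyond counting noise (chi-square per degree of freedom 71.4 to 142). The genes and lists were chosen with earlier results of these data known. Of each pathway list up to 4 genes with the smallest p are named; Trp53 and Ccng1 were chosen after their values were seen. Positions and exon lengths are from GENCODE M21 (GRCm38), and promoter windows from RefSeq (GRCm38.p6), those of 1 chromosome not used here.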

Additional observations from a re-analysis of the deposited data

How the results depend on the processing

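Across 179 alternative values of the 10 genes, 156 kept direction and side of the threshold, 5 passed it and 18 turned sign; the cause was not tested. Cdkn1a kept its direction in all 18 alternatives, between -3.60 and -2.47, with adjusted p (limma, edgeR or DESeq2) from 0.000878 to 0.912. Ccnd3 and Cdkn1c kept theirs in 18, and Cdk6 in the 17 that gave a value; it had none with a filter at a mean of 5 CPM. Leaving out each library in turn gave log2 differences of -0.25 to 0.43 for Ccnd1, -0.55 to 0.24 for Ccnd2, -0.85 to 0.13 for Cdk4, -0.10 to 0.47 for Cdkn1b, -0.44 to 0.11 for Cdkn2c and -0.48 to 0.15 for Rb1. With library weights the difference was 0.50 for Ccnd1, 0.14 for Ccnd2 and -0.088 for Cdkn1b. Without both combined libraries it was 0.40 for Ccnd1, -0.16 for Cdkn1b and 0.27 for Cdkn2c, and with the prefix as a batch term 0.012 for Ccnd1 and 0.067 for Ccnd2.

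Counts of genes called moved more. Library weights called 1059 genes higher and 1366 lower, with 3 of the 10 and 20 pathway genes lower and 2 pathway genes higher. DESeq2 called 35 higher and 130 lower, with 1 of the 10 and 3 pathway genes lower. Without both combined libraries 3 were higher and 201 lower, with 1 of the 10 and 4 pathway genes lower. With the prefix term 1 was higher and 7 lower. Leaving out each library gave 0 to 2 higher, 0 to 108 lower and 0 to 1 pathway genes lower; the highest counts came without vehicle combined. No paired analysis was possible because the columns carry only vehicle 1, vehicle 2 and 15-HETrE 1, so the groups share fewer than 2 numbers, and the replicate block was not run. For genes under 3 reads in a library, the level is known only up to a floor set by depth. For Cdk6 this floor was 0.540 CPM in vehicle combined and 0.405 CPM in 15-HETrE combined. Both floors lay below its level in every other library, and the reason was not tested.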
